A study of Rattus norvegicus with 6 samples.

Results

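The genes of the NRF2 pathway, with the small Maf gene Mafk, were followed in H9c2 cells given ginsenoside Rb2. The 10 genes were chosen by symbol as the sensor, the factor and its partner, and well-known targets: Nfe2l2, Keap1, Mafk, Hmox1, Nqo1, Gclc, Gclm, Txnrd1, Srxn1 and Slc7a11. Of these, 9 were found by symbol among the 24360 gene rows. Srxn1 was not, so its expression was not analysed, and it enters only the search of start regions below. H9c2 is a myoblast line from embryonic rat heart, labelled as wild type. The Ctrl group (3 samples, treatment label NC) was compared with the Rb2 group (3 samples, treatment label ginsenoside Rb2, a saponin of ginseng). One protocol text covers both groups, with Rb2 first, then loss and later return of oxygen and glucose, and it does not say which of these steps the Ctrl cells went through. The labels do not name separate cultures, and each p-value is then set against sample-to-sample spread that may be technical.

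NRF2, the protein of Nfe2l2, is a transcription factor that KEAP1 holds in the cytoplasm and hands to a CUL3 ubiquitin ligase for destruction. Oxidants and electrophiles modify KEAP1, and NRF2 then builds up, pairs with a small Maf protein (MAFK, MAFG or MAFF) and binds antioxidant response elements beside genes of glutathione synthesis, thioredoxin reduction, quinone removal and heme breakdown. Small Maf proteins have no activation domain of their own, and as pairs with one another or with BACH1 they can repress the same elements. Much of this control acts on the NRF2 protein, which RNA counts do not measure. In heart muscle the pathway is known for its part in the response to return of oxygen.

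Total counts ran from 5193077 to 8793390 per sample, and 3 counts, the most that a gene with 0 counts may have given, equalled 0.341 to 0.578 CPM (counts scaled to the library's total), by counting error alone. Ctrl replicate 1, the deepest library, differed most from the others. Over genes, the chi-square per degree of freedom between it and any other sample was at least 10.8, while the other pairs ran from 1.71 to 10.3. That measure was taken on unscaled counts and grows with depth, so the difference was not separated from depth. Of the cardiac markers, Tnnt2 had a mean of 52.5 ± 7.36 CPM among Ctrl samples and 45.0 ± 3.80 CPM among Rb2 samples (SD, n = 3), Actc1 was at 0 in all 6 samples and Myh7 had 1 count in all. The leukocyte marker Ptprc and the epithelial markers Epcam and Cdh1 were at 0 in every sample. Others of these lists were present: the epithelial marker Krt8 had means of 36.6 ± 4.83 CPM among Ctrl and 35.9 ± 3.24 CPM among Rb2 samples. The leukocyte marker Cd3e had 3 to 11 counts per sample. No marker tested was called, and those tested were 3 of 12 listed cardiac, 4 of 10 skeletal muscle, 7 of 8 fibroblast and 1 of 5 epithelial markers. No endothelial or leukocyte marker was tested, so none of those could have been called. Of 11551 genes tested, 219 were higher and 93 lower in Rb2. With upper-quartile factors the split was 135 and 92, with library size alone 461 and 80, and with a length offset 135 and 114.

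Mafk fell in Rb2 and the other 8 genes did not pass the test. A call is an adjusted p under 0.05 in edgeR's quasi-likelihood test over all gene rows, and 2.7% of all genes tested were called, 0.805% lower and 1.9% higher in Rb2. All 9 genes passed the filter on low counts, Slc7a11 through its 3 Rb2 samples with 1 of 3 in Ctrl. The 1 call of 9 is 11.1%, but that share rests on 1 gene. The members were also chosen with earlier results of these data known, so the share cannot be weighed against that background. The median log2 fold change (Rb2 over Ctrl) of the 9 was -0.19, against -0.02 over all genes tested, with 6 below 0 and 3 above.

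**Figure D1:**
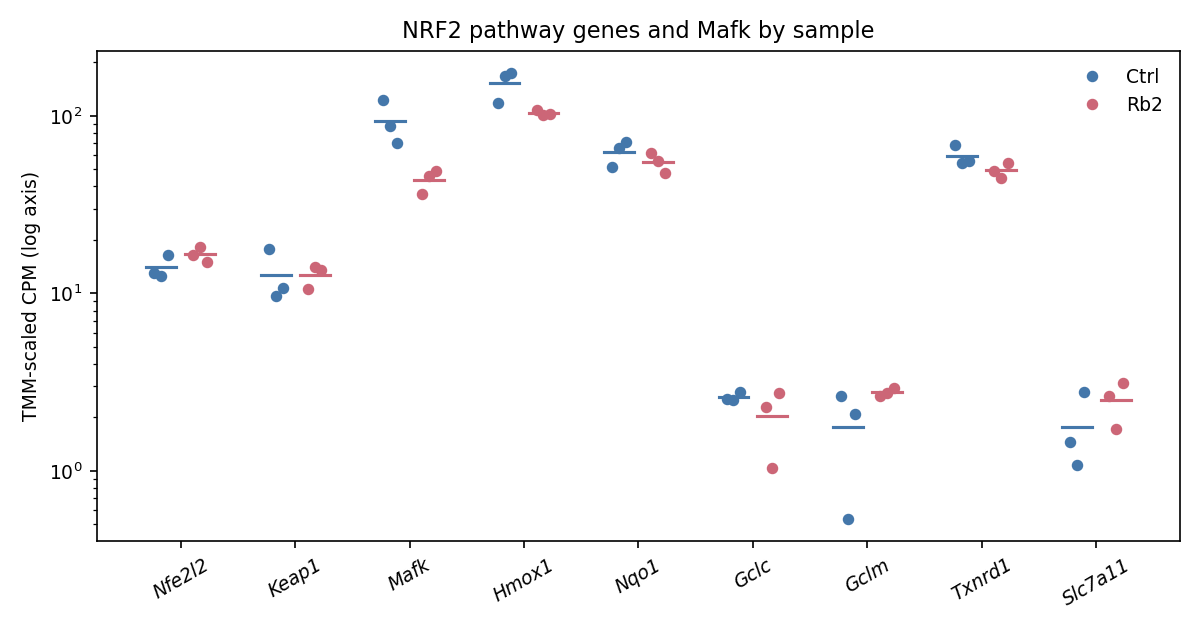
TMM-scaled CPM on a log axis for each gene, with 1 point per sample (Ctrl blue, Rb2 red, 3 each) and a bar at each group's mean. The Mafk samples separate, from 70.0 to 123 CPM in Ctrl and from 36.3 to 49.0 CPM in Rb2, while Nfe2l2, Keap1, Nqo1, Gclc, Txnrd1 and Slc7a11 overlap.

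Mafk (ENSRNOG00000001277), a leucine-zipper DNA-binding partner of NRF2, stood at 123, 87.6 and 70.0 TMM-scaled CPM in Ctrl replicates 1 to 3 and at 36.3, 45.8 and 49.0 in Rb2 replicates 1 to 3. Every Rb2 sample was below every Ctrl sample, and Ctrl replicate 1 was the highest. The means were 93.4 ± 26.9 and 43.7 ± 6.63 CPM (SD, n = 3), a 2.14-fold lower level (log2 fold change -1.10, SE 0.21, 95% interval -1.57 to -0.63, edgeR adjusted p = 0.0369). Without Ctrl replicate 1 the log2 fold change was -0.83 (adjusted p = 0.00682). Over 19 alternatives the direction held and the call was lost in 6, among them known genes only (adjusted p = 0.0519) and the fits without Ctrl replicate 2 (0.146) or Rb2 replicate 1 (0.121), 2 (0.188) or 3 (0.15). In bulk RNA, fewer cells of a kind and less RNA per cell cannot be told apart. The mean gene length behind a count also moved with the groups, from 1693 to 1747 bases in Ctrl and from 1761 to 1767 bases in Rb2, and with an offset for length the Mafk log2 fold change was -1.24 (adjusted p = 0.0451).

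The start region of Mafk is shown because Mafk is the called gene and its window holds the core letters of an antioxidant response element. The window runs from 250 bases before to 50 bases after the RefSeq start, at chr12:19959143-19959442 of GRCr8, minus strand, and is printed 5′ to 3′ with the match to TGACNNNGC in capitals (here on the opposite strand, starting 41 bases before the start).
Mafk: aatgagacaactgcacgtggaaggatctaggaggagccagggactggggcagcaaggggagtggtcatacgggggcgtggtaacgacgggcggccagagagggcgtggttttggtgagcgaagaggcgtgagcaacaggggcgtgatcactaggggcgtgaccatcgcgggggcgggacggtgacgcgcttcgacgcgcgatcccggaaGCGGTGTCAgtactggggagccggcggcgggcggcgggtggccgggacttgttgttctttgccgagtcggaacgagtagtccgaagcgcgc
Windows were found for 9 of the 10 genes (Srxn1 among them, none for Hmox1), and 4 of these genes hold at least 1 match on either strand. Of all 33469 windows of the same length, 12.1% hold one. The 4 are counted by gene, with 2 windows for Txnrd1, while the 12.1% is counted by window. The genes were also chosen as pathway members with earlier results known, so the 4 of 9 cannot be weighed against that share. The other matches, each with up to 8 bases on both sides, are these.
Nfe2l2: ctagccatTGACGCCGCctc
Gclm: cggtttctGCTTAGTCAttgtcttc
Txnrd1: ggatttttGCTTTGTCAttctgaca
The Gclm match starts 172 bases and the Txnrd1 match 78 bases before the start (in 1 of 2 Txnrd1 windows), both on the opposite strand, and the Nfe2l2 match starts 38 bases after it on the gene's strand. Of these 4 genes Mafk was called lower, and the others had log2 fold changes of 0.24 (Nfe2l2), 0.59 (Gclm) and -0.27 (Txnrd1). A match is letters only. Many known antioxidant response elements lie farther from the start than this window reaches.

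Mafk counts were split between 2 transcript models, an annotated one of 2645 bases and a new model of 2744 bases. New models carry identifiers that begin with ONT, a name used for nanopore long reads, while the labels' protocol describes an Illumina library kit. The files do not settle which kind of read was counted, so what a transcript count stands for, and what the length offset corrects, is uncertain. In Ctrl replicate 1 the new model took 91.4% of Mafk counts (95% exact binomial interval 89.5 to 93.0%), in Ctrl replicate 2 51.6% and in Ctrl replicate 3 33.0%. In Rb2 replicates 1 to 3 it took 36.1%, 30.8% and 41.0%. Ctrl replicate 3 therefore lay inside the Rb2 range, and the Ctrl samples spread far more than the Rb2 samples (58.7% ± 29.8 and 36.0% ± 5.11, SD, n = 3). These intervals cover counting error only, and how reads were divided between models of such similar length is not given in the sources used here.

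The new model stood at 114, 45.1 and 23.0 CPM in Ctrl and at 13.01, 14.1 and 20.1 CPM in Rb2. Its groups did not overlap, which held for 23% of all transcripts tested. Its log2 fold change was -1.95 (SE 0.60), but it did not pass (edgeR adjusted p = 0.261). The annotated model stood at 10.8, 42.3 and 46.7 CPM in Ctrl and 23.0, 31.6 and 28.9 CPM in Rb2, with Ctrl replicate 1 the lowest of all 6 samples (log2 fold change -0.25, adjusted p = 0.871). Without Ctrl replicate 1 both models had lower means in Rb2, with log2 fold changes of -1.12 for the new model (adjusted p = 0.251) and -0.68 for the annotated one (adjusted p = 0.161). DESeq2 called the new model (adjusted p = 0.0119) and not the annotated one (0.893). Of 16679 transcripts tested with edgeR none passed (0% called; 2304 at an unadjusted p under 0.05, and 348 called by DESeq2). The share test, diffSpliceDGE of edgeR, called 0.417% of 3361 genes and did not call Mafk (adjusted p = 1).

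**Figure D2:**
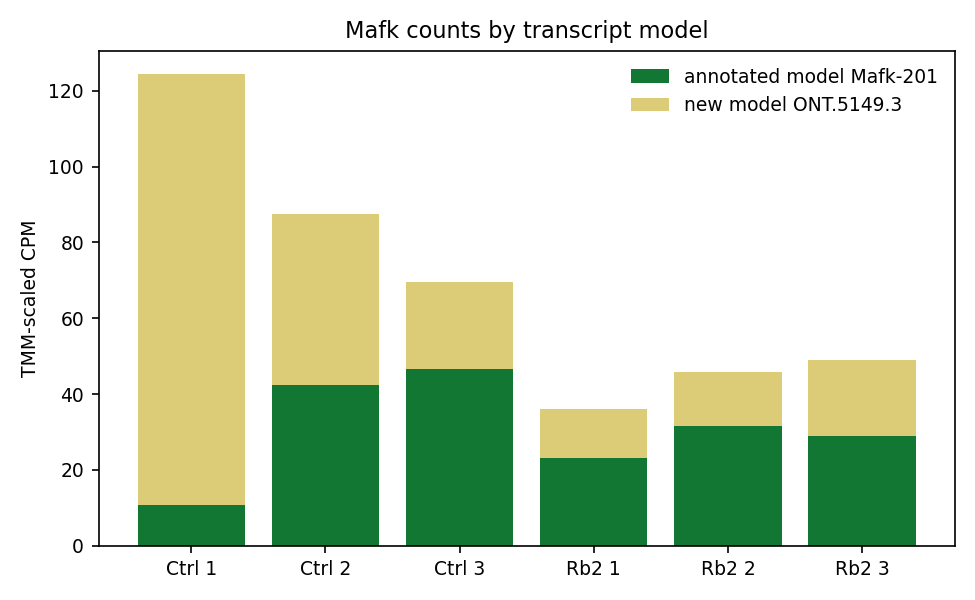
Stacked bars of TMM-scaled CPM for the annotated model (green) and the new model (yellow) in each of the 6 samples. The new model makes up 91.4% of Mafk counts in Ctrl replicate 1 and between 30.8% and 51.6% in the other samples.

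The other small Maf genes had lower means in Rb2 but were not called. Mafg stood at 8.20, 3.95 and 5.38 CPM in Ctrl and 2.65, 2.41 and 3.84 CPM in Rb2, so the groups were just apart (log2 fold change -1.003, SE 0.33, adjusted p = 0.13). Maff stood at 23.5, 8.08 and 7.81 CPM in Ctrl and 2.65, 6.89 and 8.23 CPM in Rb2 (log2 fold change -1.18, SE 0.55, adjusted p = 0.29), and the groups overlapped. Mafk, Mafg and Maff were all highest in Ctrl replicate 1. Without that sample the log2 fold change was -0.64 for Mafg (adjusted p = 0.24) and -0.41 for Maff (adjusted p = 0.603). Whether Mafk moved apart from the others was tested on the log2 ratio within each sample. The ratio of Mafk to Mafg was 3.90 ± 0.37 for Ctrl and 3.68 ± 0.27 for Rb2 samples (SD, n = 3; exact two-sided permutation p = 0.5, adjusted over both ratios p = 1). For Mafk to Maff it was 2.93 ± 0.52 and 2.90 ± 0.56 (exact two-sided permutation p = 1). With 3 samples against 3 that test cannot go below 0.1, and a fall particular to Mafk was not shown. Bach1, which encodes a repressor that competes for the same elements, had 6 to 10 counts per sample and did not pass the filter, and Bach2 had none.

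Nfe2l2 and Keap1, the factor and its sensor, showed no call. Nfe2l2 (ENSRNOG00000001548) stood at 13.02, 12.6 and 16.5 CPM in Ctrl and 16.4, 18.3 and 14.99 CPM in Rb2. The groups overlapped through Ctrl replicate 3 (log2 fold change 0.24, 95% interval -0.15 to 0.64, adjusted p = 0.482). Keap1 (ENSRNOG00000020878) stood at 17.7, 9.70 and 10.8 CPM in Ctrl and 10.6, 14.1 and 13.5 CPM in Rb2, with means of 12.7 ± 4.36 and 12.8 ± 1.88 CPM (SD, n = 3). Its log2 fold change was -0.01 (95% interval -0.57 to 0.55, adjusted p = 0.983), and 0.33 without Ctrl replicate 1, its highest sample (adjusted p = 0.337).

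The transcript models of these 2 genes were uneven in Ctrl. A new Nfe2l2 model took from 88.0% to 99.1% of that gene's counts, and the annotated one had 9 counts in Ctrl replicate 1 and 0 or 1 in the others. The annotated Keap1 model held all 147 Keap1 counts in Ctrl replicate 1, 83.3% in Ctrl replicate 2 and 38.7% in Ctrl replicate 3. In Rb2 replicates 1 to 3 it held 100%, 95.1% and 93.2%. A new Keap1 model had the rest, with 9 and 38 counts in Ctrl replicates 2 and 3 and at most 5 in Rb2, and did not pass the filter, so the share was not tested.

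The 2 called regulators both act in cullin ubiquitin ligases. Cul3, the scaffold on which KEAP1 presents NRF2, rose from 5.67, 4.49 and 10.2 CPM in Ctrl to 18.2, 17.4 and 18.3 CPM in Rb2. The Rb2 samples were nearly level and all above Ctrl replicate 3, the highest Ctrl sample (log2 fold change 1.41, SE 0.27, adjusted p = 0.0368). Cand1, which exchanges the substrate receptors of cullin ligases, rose from 7.48, 10.1 and 11.8 CPM to 23.9, 20.3 and 17.7 CPM (log2 fold change 1.09, SE 0.21, adjusted p = 0.0369). Its call was lost under the length offset (log2 fold change 0.95, adjusted p = 0.0662), and both calls were lost without Ctrl replicate 2 or any 1 Rb2 sample. Rbx1, the RING subunit of the same ligase, stood at 620 ± 54.5 CPM among Ctrl and 556 ± 15.2 CPM among Rb2 samples (SD, n = 3), a log2 fold change of -0.16 (adjusted p = 0.344). Of 12 regulators tested, 2 rose, 10 were not called and none fell, at a median log2 fold change of -0.18, beside 1.9% of all genes higher and 0.805% lower. Among those not called was Park7, which encodes the redox sensor DJ-1 (log2 fold change -0.30, adjusted p = 0.09).

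**Figure D3:**
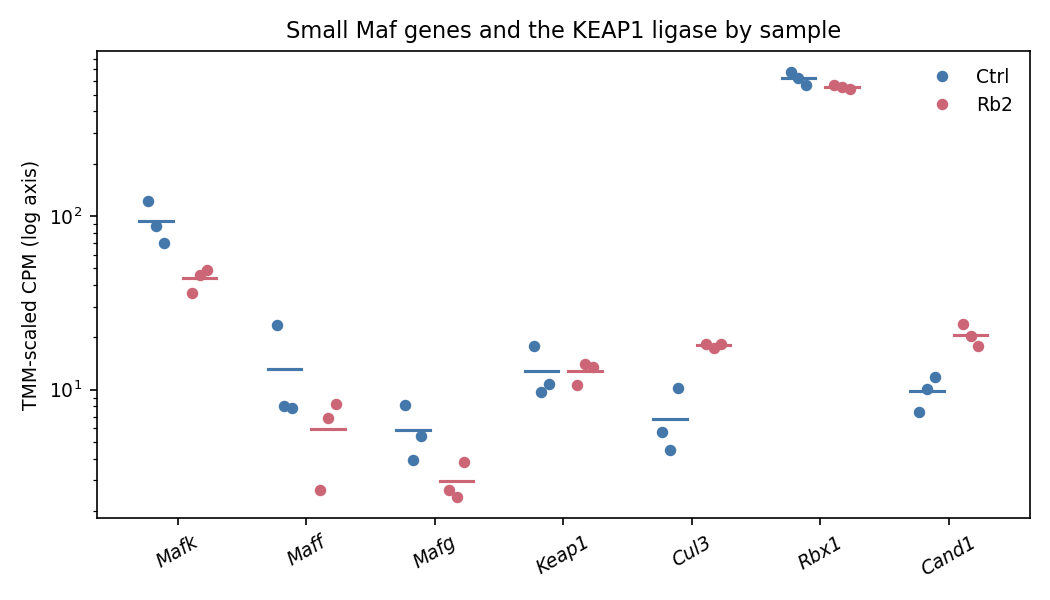
TMM-scaled CPM on a log axis for the 3 small Maf genes, Keap1 and 3 genes of cullin ligases, with 1 point per sample (Ctrl blue, Rb2 red) and a bar at each mean. Cul3 lies between 4.49 and 10.2 CPM in Ctrl and between 17.4 and 18.3 CPM in Rb2, while Maff and Keap1 overlap.

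Of the 9 genes, Hmox1 had the lowest adjusted p after Mafk. It encodes heme oxygenase 1, which breaks down heme and which both NRF2 and BACH1 regulate. Hmox1 (ENSRNOG00000014117) stood at 118, 168 and 174 CPM in Ctrl and 107, 101 and 103 CPM in Rb2, with no overlap. Ctrl replicate 1 lay close to the Rb2 samples, the reverse of its place in Mafk. Groups did not overlap in 27.2% of all genes tested, and in 3 of the 9 genes here (Mafk, Hmox1, and Gclm by less than the digits printed). The log2 fold change was -0.56 (SE 0.14, 95% interval -0.89 to -0.24, adjusted p = 0.0704). Without Ctrl replicate 1 it was -0.70 and passed (adjusted p = 0.000136), and it passed with DESeq2 (adjusted p = 0.0274), with no filter (0.0405) and with the length offset (0.0498). These were the only 4 of 19 alternatives that called Hmox1, though the direction held in all. It did not pass with library size alone (adjusted p = 0.136), limma-voom (0.101) or any other sample left out (0.0978 to 0.282). Its annotated transcript held from 98.5% to 99.9% of the counts in every sample (log2 fold change -0.57, adjusted p = 0.219).

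Nqo1 and Txnrd1, the other abundant targets, overlapped between groups. Nqo1 (ENSRNOG00000012772), a quinone reductase often read as a gauge of NRF2 activity, stood at 51.2, 65.7 and 71.2 CPM in Ctrl and 61.4, 55.5 and 47.3 CPM in Rb2. Its log2 fold change was -0.19 (95% interval -0.54 to 0.15, adjusted p = 0.52). Txnrd1 (ENSRNOG00000009088), cytosolic thioredoxin reductase, stood at 68.7, 54.2 and 55.4 CPM in Ctrl and 49.2, 44.6 and 54.3 CPM in Rb2. Only Rb2 replicate 3 reached the Ctrl range (log2 fold change -0.27, 95% interval -0.58 to 0.04, adjusted p = 0.304). The annotated Txnrd1 model held from 88.4% to 94.6% of its counts, and a new model nearly all the rest, at log2 fold changes of -0.24 (adjusted p = 0.529) and -0.71 (0.42). The share test did not call Txnrd1 (adjusted p = 1).

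The glutathione genes among the 9 were rare and their errors wide. Gclc (ENSRNOG00000006302), the catalytic subunit of glutamate-cysteine ligase, had 21, 14 and 16 counts in Ctrl and 13, 6 and 15 in Rb2 (log2 fold change -0.37, 95% interval -1.17 to 0.44, adjusted p = 0.61). Gclm (ENSRNOG00000013409), the modifier subunit, had 22, 3 and 12 counts in Ctrl and 15, 16 and 16 in Rb2 (log2 fold change 0.59, 95% interval -0.38 to 1.56, adjusted p = 0.485). Ctrl replicate 2 was the low sample, at 0.539 CPM, and the other 5 lay between 2.08 and 2.93 CPM. Slc7a11 (ENSRNOG00000010210), the cystine importer, had 12, 6 and 16 counts in Ctrl and 15, 10 and 17 in Rb2 (log2 fold change 0.50, 95% interval -0.40 to 1.41, adjusted p = 0.523). For all 3 the interval reaches past a 2-fold change in 1 direction, so at this depth a change of that size could have been missed.

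**Figure D4:**
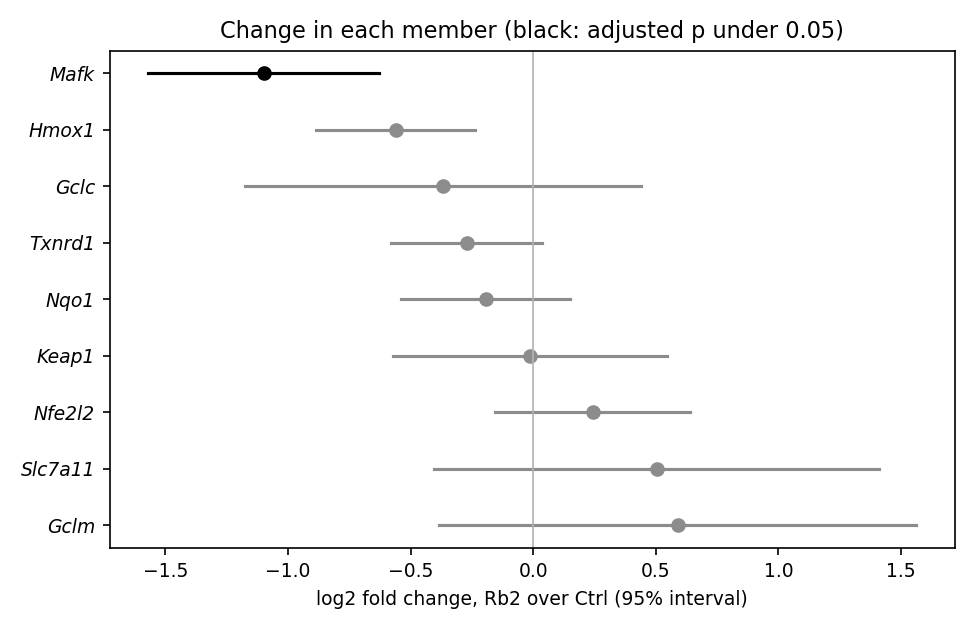
Log2 fold change (Rb2 over Ctrl) of each of the 9 genes with its 95% interval, black where the edgeR adjusted p was under 0.05 and grey otherwise. The interval of Mafk runs from -1.57 to -0.63, and the widest, that of Gclm, from -0.38 to 1.56.

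By level per length (TMM-scaled CPM per kilobase of gene length, mean of 6 samples), Hmox1 led at 80.7, followed by Nqo1 at 37.2, Mafk at 23.7, Txnrd1 at 15.8, Nfe2l2 at 6.42, Keap1 at 4.01, Gclm at 1.53, Gclc at 0.761 and Slc7a11 at 0.24. Neighbours whose sample ranges overlapped in Ctrl were Nqo1 and Mafk, Nfe2l2 and Keap1, and Gclm and Gclc. In Rb2 the level of Mafk, from 12.5 to 16.9 CPM per kilobase, overlapped that of Txnrd1, from 12.96 to 15.8. In Ctrl the same pair lay apart, at 24.2 to 42.4 and 15.8 to 20.0 CPM per kilobase. Gclc and Slc7a11 also overlapped in Rb2. Because the kind of read is not settled, whether counts should be divided by length is uncertain, and the order depends on it. In CPM, Mafk had a higher mean than Nqo1 in Ctrl (93.4 against 62.7) and a lower one in Rb2 (43.7 against 54.7).

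Across the wider pathway, 84 further genes were listed by role, 78 were matched by symbol and 69 were tested. Of these, 3 rose, 2 fell and 64 did not pass, which is 7.25% against the 2.7% of all genes. The lists were chosen with earlier results of these data known, so the higher share is a description and no evidence of enrichment. The median log2 fold change of the 69 was -0.08, with 27 above 0 and 42 below. Leaving out 1 sample gave 0 to 16 calls, 16 without Ctrl replicate 1, 10 without Ctrl replicate 3, and 0 without Ctrl replicate 2 or any 1 Rb2 sample. The count over all genes moved alike, with 896 of 11901 called without Ctrl replicate 1, 644 of 12022 without Ctrl replicate 3, and 3 to 39 in the other 4 fits.

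In glutathione synthesis and use, 1 of 18 fell and 17 did not pass, beside 0.805% of all genes lower. The gene that fell was Gstp1, which encodes a glutathione transferase, from 888, 885 and 808 CPM in Ctrl to 698, 665 and 661 CPM in Rb2 (log2 fold change -0.35, SE 0.08, adjusted p = 0.0489). Its groups were clearly apart, but 14 of 19 alternatives ended the call, library size alone among them (log2 fold change -0.24, adjusted p = 0.0711). Gpx4, which reduces lipid peroxides, stood at 1130 ± 68.8 and 1069 ± 48.1 CPM (SD, n = 3), a log2 fold change of -0.08 (adjusted p = 0.62). Among 12 thioredoxin and peroxiredoxin genes none was called (median log2 fold change -0.10). The 2 with the highest level per length were Txn1, thioredoxin itself, with 1552 ± 147 and then 1410 ± 57.7 CPM (log2 fold change -0.14, adjusted p = 0.415), and the peroxidase gene Prdx2, at 1277 ± 32.2 and 1109 ± 15.7 CPM (-0.20, adjusted p = 0.146).

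In NADPH supply, which feeds both reductant systems, 1 of 6 fell and 5 did not pass, beside 0.805% of all genes lower. Tkt, the transketolase of the pentose phosphate pathway, fell from 225, 200 and 187 CPM in Ctrl to 134, 130 and 130 CPM in Rb2 (log2 fold change -0.63, SE 0.10, adjusted p = 0.0207). The Rb2 samples were nearly level and all below the lowest Ctrl sample. Without Ctrl replicate 2 or any 1 Rb2 sample the call was lost (adjusted p from 0.0748 to 0.188). Taldo1, the transaldolase of the same pathway, showed a log2 fold change of -0.09 (adjusted p = 0.698), and Idh2, which makes NADPH in mitochondria, 0.02 (adjusted p = 0.956).

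In heme and iron handling none of 7 was called, with a median log2 fold change of 0.02. Fth1, the ferritin heavy chain, stood at 4889 ± 140 and 4213 ± 93.9 CPM (SD, n = 3), a log2 fold change of -0.21 (adjusted p = 0.117), and ferritin genes have processed copies that can share reads. Blvrb, a biliverdin reductase that acts after heme oxygenase, showed a log2 fold change of -0.17 (adjusted p = 0.302). In detoxification and export 1 of 14 rose and 13 did not pass (median 0.01), beside 1.9% of all genes higher. Ugdh, which makes the sugar donor for glucuronidation, rose from 17.8, 24.6 and 25.7 CPM in Ctrl to 42.3, 38.9 and 40.4 CPM in Rb2, with no overlap (log2 fold change 0.84, SE 0.16, adjusted p = 0.0369). Without Ctrl replicate 2 or any 1 Rb2 sample this call was lost as well (adjusted p from 0.131 to 0.188). Sod1, cytosolic superoxide dismutase, had means of 834 ± 142 and 631 ± 20.2 CPM, a log2 fold change of -0.40 (adjusted p = 0.0964), and Akr1a1, an aldehyde reductase, showed a log2 fold change of -0.11 (adjusted p = 0.634).

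**Figure D5:**
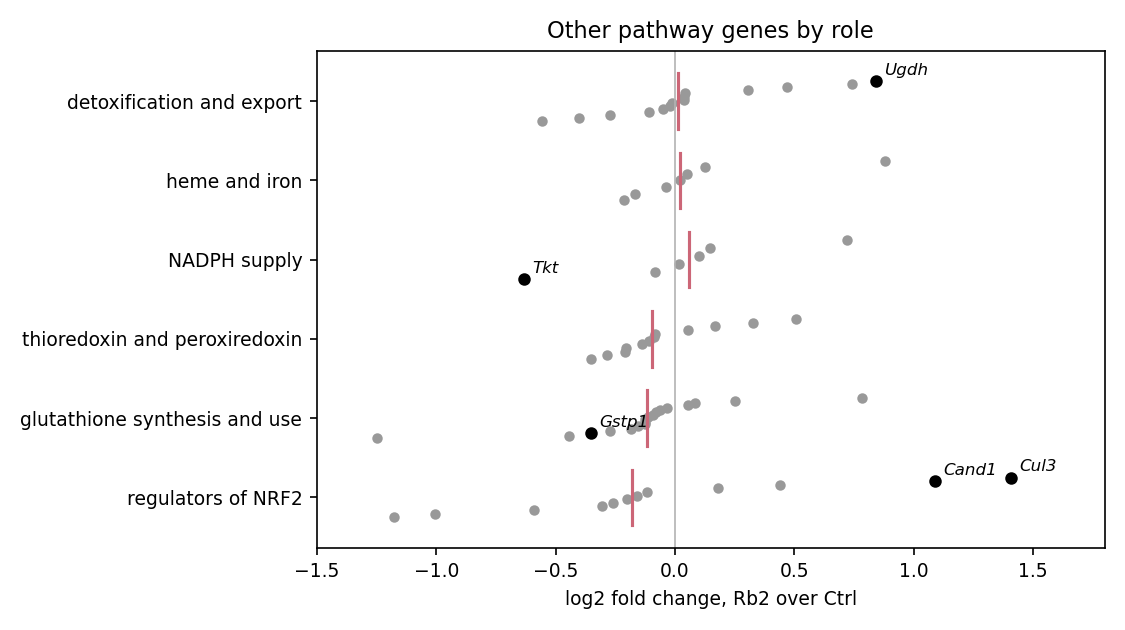
Log2 fold change (Rb2 over Ctrl) of the 69 tested genes in 6 role lists, with 1 point per gene, black and named where called, and a red line at each list's median. The medians lie between -0.18 and 0.06, and the 5 called genes are Cul3, Cand1 and Ugdh above 0 and Tkt and Gstp1 below it.

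Among 6531 other named genes with a mean of at least 5 CPM, the 5 whose log2 CPM followed Mafk most closely over the 6 samples were Asmtl (Pearson r = 0.991), Kin (0.99), C1qtnf5 (0.987), Car11 (0.986) and Npdc1 (0.985). The points share libraries and fall into the 2 groups, so the values are a description. None of these 5 was called, with log2 fold changes from -0.58 (Kin) to -0.21 (Npdc1).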

How the data were processed

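RNA was sequenced from 3 Ctrl and 3 Rb2 samples of H9c2. The authors deposited whole-number counts per gene and per transcript with lengths, and CPM, which equal the deposited count over the column total with no length scaling. The submitters' processing notes name HISAT2, DESeq2 and mm10, with no role or order, while known genes carry rat identifiers. The counter and the build aligned to were not given in the sources used here. Another 18 columns per file match none of the samples and were left out.

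The main test was that of edgeR 4.0.16, run on the deposited counts in R 4.3.3 (TMM, filterByExpr, robust quasi-likelihood fit, Benjamini-Hochberg over all rows). Standard errors were derived from fold changes and F statistics. Transcript shares were tested with diffSpliceDGE. CPM values printed are TMM-scaled. Alternatives used DESeq2 1.42.0, limma 3.58.1, other scalings and filters, a length offset (loess, span 0.5), log2 of the deposited CPM plus 1 or 0.1, a replicate block and each sample left out. Scripts were tested on simulated data. Ratios of small Maf genes used log2 of CPM plus 0.5. Promoter windows are RefSeq's, from GRCr8.

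The members and lists were chosen with earlier results of these data known. Named are all members, the called genes of each list, and the 2 with the highest CPM per kilobase. Outside that rule, Mafg and Maff are named for the ratio test, and Bach1, Bach2, Prdx1, Akr1b8, Gsr and Sqstm1 were chosen after their values were seen. Marker lists covered cardiac muscle, skeletal muscle, fibroblast, endothelial, leukocyte and epithelial genes. In that order, 10 of 12, 9 of 10, 8 of 8, 2 of 6, 5 of 6 and 5 of 5 listed markers were matched by symbol. Only matched markers enter the sums, and the endothelial sum rests on Tek and Vwf alone. A marker without a match is not thereby at 0. Summed marker levels in Ctrl and Rb2 ran from 56.2 to 75.0 and 54.5 to 63.5 CPM (cardiac), 36.3 to 47.4 and 42.8 to 48.1 (skeletal), 6138 to 6546 and 6308 to 6629 (fibroblast), at most 0.177 (endothelial), at most 2.74 (leukocyte) and 32.0 to 41.6 and 33.6 to 39.6 (epithelial, all of it Krt8).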

Additional observations from a re-analysis of the deposited data

How the results depend on the processing

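The count of all called genes (312) was 541 with library size only, 536 with no filter, 111 with known genes only, 206 with edgeR without robust, 601 and 559 with limma on log2 CPM (plus 1 and plus 0.1), and 3 to 896 with 1 sample left out. Of the 9 members (1 called), 2 were called with the length offset, no filter or DESeq2, 0 with known genes only, and 0 to 2 with 1 sample left out. Of the pathway lists (5 called), 8 were called with no filter or DESeq2, and 0 to 16 with 1 sample left out. For transcripts (0 called) DESeq2 gave 348, and leaving out 1 sample gave 0 to 41. Transcript usage was called in 14 genes, and in 17 to 31 with 1 sample left out. With the replicate number as a block, Mafk had an adjusted p of 0.0804, and 33 genes, 0 members, 0 list genes and 5 genes by usage were called. Same-numbered deviations correlated at -0.069, -0.0667 and -0.0109, and no sample correlated best with its own number. With 3 samples per group these values show no sign of pairing by number but cannot exclude it.

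The Keap1 fold change, near 0, changed sign with library size only (0.105), no filter (0.00945), limma-voom (0.00593), CPM plus 1 (0.143) or 0.1 (0.156) and the replicate block (0.029), and ran from -0.165 to 0.334 with 1 sample left out. In the same way the annotated Keap1 transcript ran from -0.0905 to 0.994 and the annotated Mafk transcript from -0.678 to 0.0972. The Mafk to Mafg ratio difference (-0.223) ran from -0.384 to -0.0213, and that of Mafk to Maff (-0.0363) from -0.359 to 0.177, with 0.0167 at a pseudocount of 0.1. The cause was not tested. With library size only, all genes had a median log2 fold change of 0.0966, against -0.0162. Depth limits Gclc, Gclm and Slc7a11 most.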

Other observations

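Groups did not overlap in 26 of the 69 pathway genes tested (17 lower and 9 higher in Rb2). Of all 11551 genes tested they did not overlap in 27.2% (1408 lower and 1737 higher in Rb2). The lists were chosen with earlier results of these data known, so these counts are a description. The 4 pathway genes given here were not called and were chosen after their values were seen. Prdx1, a peroxidase gene and known NRF2 target, stood at 249 ± 43.0 CPM among Ctrl and 353 ± 20.0 CPM among Rb2 samples (SD, n = 3; log2 fold change 0.51, edgeR adjusted p = 0.0662). The aldo-keto reductase gene Akr1b8 had means of 162 ± 30.5 and 109.9 ± 5.25 CPM, with a log2 fold change of -0.56 (adjusted p = 0.0658). Gsr, which encodes glutathione reductase, stood at 14.95, 6.47 and 4.17 CPM in Ctrl and 3.71, 3.44 and 3.84 CPM in Rb2 (log2 fold change -1.25, adjusted p = 0.166), with Ctrl replicate 1 far above the other 5 samples. Sqstm1, which encodes the autophagy adaptor p62 that binds KEAP1, stood at 274, 286 and 315 CPM in Ctrl and 236, 248 and 246 CPM in Rb2 (log2 fold change -0.26, adjusted p = 0.137).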
